A study of Mus musculus with 21 samples.

Results

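The transcriptome of aortic valves was compared between healthy valves of Notch1 haploinsufficient mice and valves of wild-type mice, both given solvent. All 6 libraries titled as N1het healthy control valves and all 4 libraries titled as N1WT control valves were taken, which made 10 of the 21 libraries of the series. The N1het healthy libraries came from Notch1+/- (N1+/-) mice and the WT libraries from Notch1+/+ (N1+/+) mice, and the valves of both were labelled healthy. Every mouse in both groups was also a generation 2 Terc-/- animal, that is, it lacked the RNA component of telomerase and was bred with shortened telomeres, so the WT group is wild type for Notch1 alone. Both groups received a daily intraperitoneal injection of control solvent for 4 weeks, starting at 4 weeks of age. The other 11 libraries were Notch1 haploinsufficient valves that carried stenosis or were given XCT790, an inverse agonist of the estrogen-related receptor ERRα. In the main fit they served to estimate the spread between libraries, and they also counted in the filter on low values. RNA came from whole valves that were lysed directly, and the labels do not say whether the libraries of a group came from separate animals or from pooled valves. The p-values therefore measure the spread between these libraries, which may be technical in part.

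Notch1 is a receptor on the surface of endothelial and other cells. Ligands of the Delta-like and Jagged families on a neighbouring cell trigger its cleavage, and the released intracellular domain enters the nucleus, binds the DNA-binding protein RBPJ and switches on targets such as the Hes and Hey repressors. In the aortic valve, loss of one NOTCH1 copy is a known cause of bicuspid valve and of calcific valve disease in people, and in mice the disease is brought out by shortened telomeres. Valve endothelium covers a core of interstitial cells that make a matrix of collagen, proteoglycan and elastin, and calcifying valves take on genes of bone and cartilage.

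No gene passed the test. Of 14966 genes tested, 0 were called at an adjusted p under 0.05 by limma (0% of genes tested), and the smallest adjusted p was 0.294. Before adjustment, 1111 genes had a limma p under 0.05 (7.42% of genes tested), of which 792 were higher (5.29%) and 319 were lower (2.13%) in N1het healthy valves. After the libraries were rescaled by the median of gene ratios, that split was 631 higher and 456 lower. The log2 difference, which is N1het healthy minus WT on the log2(FPKM + 1) scale throughout, was above 0 for 8621 genes (57.6% of genes tested). Its median over all tested genes was 0.09, with the quartiles of all genes at -0.22 and 0.43. The 2 groups did not overlap for 173 genes (1.16%), of which 129 were higher (0.862%) and 44 were lower (0.294%) in N1het healthy valves. Leaving out WT 2 gave 1 called gene and leaving out WT 3 gave 5. Limma voom on reads recovered from the FPKM also called 0 genes, while 1340 had an unadjusted p under 0.05. Genes and lists are therefore described by their values. Counts of list members are to be read beside the shares of all tested genes given here.

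**Figure D1:**
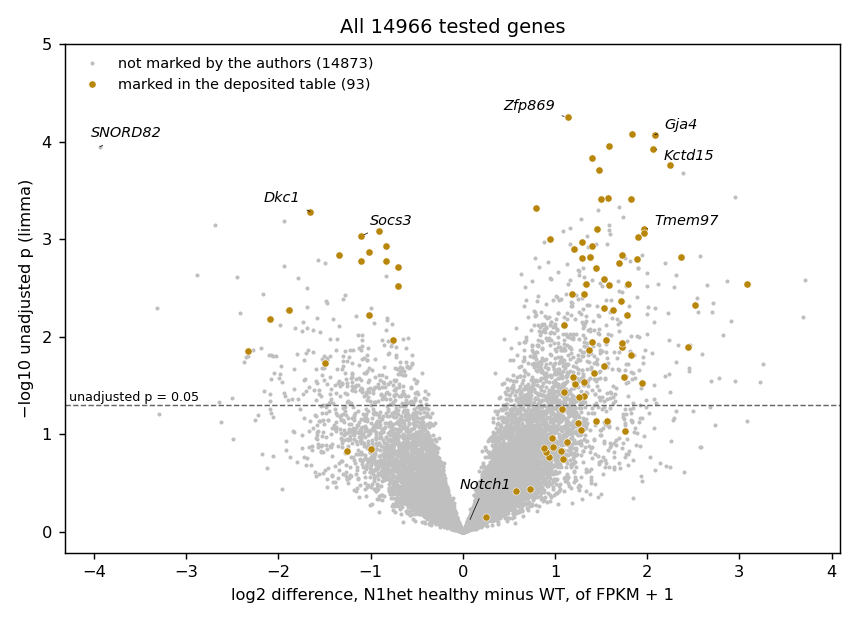
Each point is 1 tested gene, placed by its log2 difference (x axis, N1het healthy minus WT, FPKM + 1) and by −log10 of its unadjusted limma p (y axis). Gold points are the 93 tested genes that the authors' deposited table marks for this comparison, and the dashed line stands at p = 0.05. More genes lie above the line on the right (792) than on the left (319), and Notch1 sits near the bottom.

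The libraries held between 10.9 and 27.3 M reads in N1het healthy valves and between 8.42 and 21.5 M in WT valves, as recovered from the FPKM. The groups overlapped in depth (log2 difference 0.40, two-sided exact permutation p = 0.286 over 210 splits). They also overlapped in the percent of recovered reads on the 7 mitochondrially encoded genes listed, which are only a part of those genes. It ran from 0.0889 to 6.18 in N1het healthy and from 0.517 to 8.40 in WT valves (log2 difference -1.26, two-sided exact permutation p = 0.4). Of the 10 libraries, 3 held over 16 M reads (called deep below), namely N1het healthy 1 and 4 and WT 1, and among the 7 others 0 genes were called and 913 had an unadjusted limma p under 0.05. The 20 interstitial cell and fibroblast markers were high in every library, with a mean log2(FPKM + 1) of 6.73 to 7.68 in N1het healthy and 6.96 to 7.48 in WT valves. Endothelial markers stood at 3.77 to 5.49 in N1het healthy and 4.58 to 5.06 in WT valves. Heart muscle RNA varied far more. The summed FPKM of 22 cardiomyocyte markers ran from 213 to 6363 in N1het healthy valves and from 106 to 3926 in WT valves. The libraries rich in it were N1het healthy 2, 5 and 6 and WT 4, which is 3 of 6 N1het healthy and 1 of 4 WT libraries. N1het healthy 3, WT 1 and WT 4 stood apart from the rest in a principal component analysis. The Pearson correlation across genes between 2 libraries averaged 0.820 within N1het healthy, 0.779 within WT and 0.799 between the groups, with ranges that overlapped.

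Notch1 itself (ENSMUSG00000026923), the gene with 1 intact copy by genotype, was not detectably lower in the heterozygous valves. It had 42.0, 35.6, 50.03, 28.6, 24.0 and 33.3 FPKM in the 6 N1het healthy libraries, against 46.5, 33.6, 26.6 and 28.7 FPKM in the 4 WT libraries. The groups overlapped throughout, with means of 35.6 ± 9.37 FPKM in N1het healthy valves (SD, n = 6) and 33.9 ± 8.93 FPKM in WT valves (SD, n = 4). The log2 difference was 0.06 ± 0.25 (SE, adjusted p = 0.972 by limma), and its 95% interval ran from -0.45 to 0.58, so a log2 difference of -1 lay outside it. The sign turned to -0.01 after median-of-ratios scaling and to -0.09 with muscle markers as covariates. A gene-level FPKM counts reads from both copies of the gene, and the sources used here do not say which part of Notch1 the mutant allele lacks. For that reason the value does not check the genotype labels.

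The other receptors gave no call either. Notch2 was expressed at about the level of Notch1, with 25.1 to 53.3 FPKM in N1het healthy valves (median 36.5) and 58.9, 30.6, 24.1 and 30.2 FPKM in WT valves. Notch3, which is typical of mural cells, and Notch4, which is typical of endothelium, were lower per length. Notch3 had a median of 3.27 FPKM in N1het healthy valves (1.78 to 4.13), against 6.89, 2.13, 6.96 and 2.72 FPKM in WT valves. Notch4 had a median of 1.87 FPKM (0.539 to 5.71) in N1het healthy valves, against 5.27, 2.21, 3.85 and 1.26 FPKM in WT valves. Both overlapped between the groups, with log2 differences of -0.42 for Notch3 and -0.36 for Notch4. Leaving out 1 library gave -0.66 to -0.21 for Notch3 and -0.62 to -0.13 for Notch4. The value for Notch4 was 0.10 outside the deep libraries.

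Among the ligands, Jag1 and Jag2 had the most negative differences. Jag1, the main Jagged ligand of the vessel wall and valve, had 5.92, 12.4, 14.9, 6.57, 5.92 and 5.54 FPKM in N1het healthy valves and 15.998, 14.4, 14.5 and 7.604 FPKM in WT valves. Of the 6 N1het healthy libraries, 4 lay below every WT library, and the other 2 lay among them. Its log2 difference was -0.62 ± 0.31 (SE, limma adjusted p = 0.689). Jag2 had 0.109 to 1.35 FPKM in N1het healthy valves (median 0.335), against 1.91, 0.372, 1.796 and 2.08 FPKM in WT valves, and a log2 difference of -0.79 (limma adjusted p = 0.718). Jag1 was -0.36 outside the deep libraries. Dll1 had a log2 difference of 0.53, which was 0.16 without WT 4 and 0.86 without WT 1, with a median of 5.31 FPKM in N1het healthy valves and single WT values of 7.47, 2.44, 4.64 and 0.992 FPKM. Dll4, the endothelial Delta ligand, had 0.101 to 2.55 FPKM in N1het healthy and 0.0777 to 4.13 FPKM in WT valves. The other 4 ligand genes on the list (Dll3, Dlk1, Dlk2 and Dner) fell under the filter of a mean of 1 FPKM over all libraries and were not tested.

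Sox7, Tcf4 and Smad1 are transcription regulators that have been placed downstream of NOTCH1 in human endothelium. Tcf4 had 46.5 to 68.9 FPKM in N1het healthy valves (median 54.1), against 75.4, 57.2, 69.2 and 52.0 FPKM in WT valves. Sox7 had 10.3 to 40.7 FPKM in N1het healthy valves (median 33.5), against 15.1, 56.1, 23.3 and 34.3 FPKM in WT valves. Smad1 had 6.96 to 21.9 FPKM in N1het healthy valves (median 9.58), against 9.13, 26.1, 11.3 and 9.97 FPKM in WT valves. Each of them overlapped between the groups, and the log2 differences were -0.20 for Tcf4, -0.05 for Sox7 and -0.28 for Smad1. Those of Sox7 and Smad1 changed sign when WT 2 was left out (0.26 and 0.04).

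**Figure D2:**
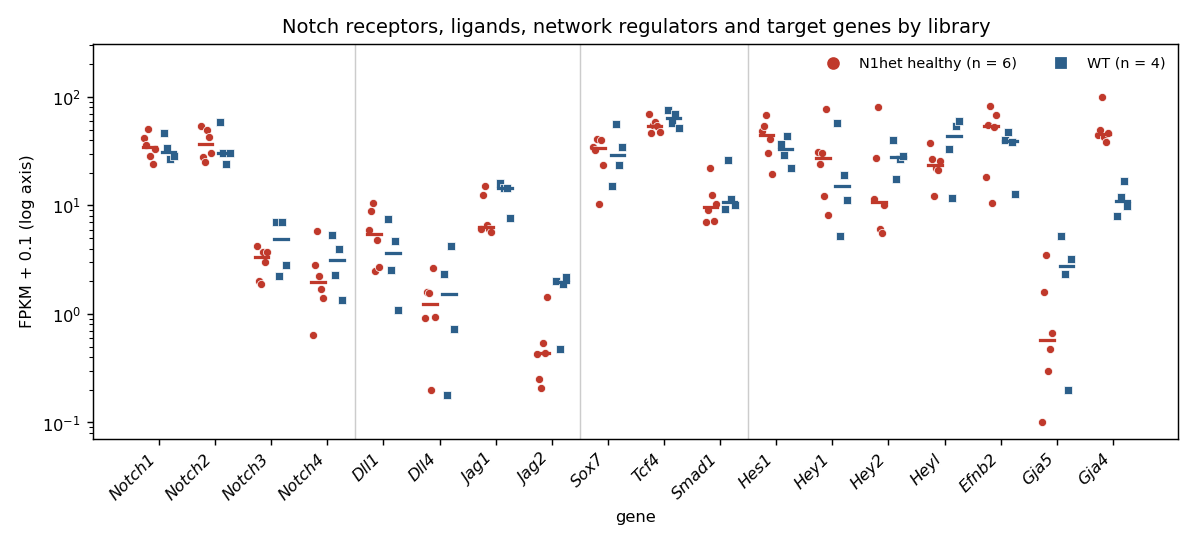
FPKM + 0.1 on a log axis for Notch receptors, ligands, network regulators and target genes, with 1 point per library (red circles, N1het healthy, n = 6, and blue squares, WT, n = 4) and a bar at each group's median. The groups overlap for every gene shown except Gja4, whose 6 N1het healthy libraries (38.4 to 98.9 FPKM) all lie above the 4 WT libraries (7.91 to 16.7 FPKM).

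Of 23 genes listed as Notch targets, 21 were tested, 7 had a log2 difference above 0 and 14 below it, and the median was -0.12, against 0.09 for all tested genes. That median was -0.0013 when N1het healthy 1 was left out. Of the 21, 1 had an unadjusted limma p under 0.05, against 7.42% of all tested genes. It was Gja4, whose groups did not overlap. The textbook targets of the Hes and Hey families overlapped between the groups. Hes1, named after its values were seen like the other Hes and Hey genes and Gja5, had 19.6 to 68.3 FPKM in N1het healthy valves (median 44.8), against 37.0, 28.8, 43.5 and 22.0 FPKM in WT valves. Hey1 had 8.08 to 77.8 FPKM (median 27.4) in N1het healthy valves, against 57.1, 5.17, 19.0 and 11.1 FPKM in WT valves. Hey2, a repressor needed in endothelium and heart, had 11.3, 27.0, 80.1, 6.01, 5.47 and 10.1 FPKM in N1het healthy valves, against 39.9, 17.3, 26.9 and 28.3 FPKM in WT valves. Of the N1het healthy libraries, 4 were below every WT library and 1 was above them all, and the log2 difference was -0.85 ± 0.58 (SE, limma adjusted p = 0.762). Heyl had a log2 difference of -0.53, which became 0.04 without the 3 libraries that stood apart. Snai1, a repressor that drives the loss of endothelial junctions in the forming valve, had 5.83 to 36.0 FPKM in N1het healthy valves (median 11.4), against 1.92, 9.76, 4.28 and 10.9 FPKM in WT valves. Bmp2, a ligand that induces bone and valve cushions, had 7.33 to 23.7 FPKM (median 17.6) in N1het healthy valves, against 10.1, 6.73, 14.0 and 4.41 FPKM in WT valves. Their log2 differences of 0.95 for Snai1 and 0.86 for Bmp2 had limma adjusted p of 0.687 and 0.697. Of 19 genes of the Notch transcription complex and its corepressors, 7 were above 0 (median -0.10, and 0.0085 without WT 1). The 1 of the 19 with an unadjusted limma p under 0.05 (against 7.42% of all tested genes) was Snw1 (SKIP), a coactivator. It had 30.7 to 49.8 FPKM (median 35.7) in N1het healthy valves and 11.1, 29.8, 33.6 and 22.9 FPKM in WT valves. Its log2 difference of 0.69 was 0.27 without the 3 libraries that stood apart.

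Gja4 (ENSMUSG00000050234) encodes connexin 37, a gap junction protein of endothelium that Notch signalling and flow induce in arteries. It had 44.7, 49.0, 98.9, 43.0, 38.4 and 46.8 FPKM in N1het healthy valves, against 7.91, 11.9, 16.7 and 9.73 FPKM in WT valves. Every N1het healthy library was above every WT library, and the lowest was 2.29 times the highest WT value. The means were 53.4 ± 22.5 FPKM in N1het healthy valves (SD, n = 6) and 11.6 ± 3.82 FPKM in WT valves (SD, n = 4), a ratio of 4.62. The log2 difference was 2.08 ± 0.43 (SE), with a 95% interval from 1.19 to 2.98, and its adjusted p by limma was 0.294, so it was not called. Gja4 stood out by its p in these same libraries, and neither the interval nor the refits below allow for that choice. The difference was 2.21 among the 6 libraries low in heart muscle, 2.04 outside the deep libraries and 1.58 without the 3 libraries that stood apart. Of 25 endothelial markers, 11 were above 0, with a median of -0.15, and 0 had an unadjusted p under 0.05. That median was 0.30 outside the deep libraries and 0.16 without N1het healthy 4. Gja5 (connexin 40), the partner connexin of arterial endothelium, had 0 to 3.39 FPKM in N1het healthy valves (median 0.474), against 5.09, 2.24, 0.1001 and 3.14 FPKM in WT valves, with a log2 difference of -0.82.

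The same WT libraries can be set beside the other Notch1 haploinsufficient valves. Gja4 averaged 35.1 FPKM in the 5 libraries titled as healthy and XCT790-treated, 40.5 FPKM in 3 stenotic libraries given solvent and 42.2 FPKM in 3 stenotic libraries given XCT790, by their titles. In the healthy XCT790 group the single values were 62.8, 46.8, 40.1, 12.9 and 12.7 FPKM. The agent field of the first 3 of these names solvent, against their titles. When the agent field set the groups, so that 9 N1het healthy libraries met the 4 WT libraries, Gja4 had a log2 difference of 2.07 ± 0.30 (SE) and an adjusted p of 0.00673 by limma, and it was the 1 gene called.

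The bases before the Gja4 and Hey2 start sites are shown because both genes are listed as Notch targets while Gja4 separated the groups and Hey2 did not. They are the 250 bases upstream of the start in RefSeq (GRCm38.p6, a later build than the mm9 of the files), written 5′ to 3′ on the strand of the gene. The Gja4 window is chr4:127314040-127314289 and the Hey2 window is chr10:30842784-30843033, both on the minus strand. Capitals mark GTGGGAA or its reverse TTCCCAC, the core letters that RBPJ is known to bind, searched on both strands.
Gja4: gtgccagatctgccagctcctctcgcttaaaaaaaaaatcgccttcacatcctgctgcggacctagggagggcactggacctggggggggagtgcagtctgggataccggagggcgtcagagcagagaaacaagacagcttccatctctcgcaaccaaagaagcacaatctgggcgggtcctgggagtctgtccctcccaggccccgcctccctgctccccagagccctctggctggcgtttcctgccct
Hey2: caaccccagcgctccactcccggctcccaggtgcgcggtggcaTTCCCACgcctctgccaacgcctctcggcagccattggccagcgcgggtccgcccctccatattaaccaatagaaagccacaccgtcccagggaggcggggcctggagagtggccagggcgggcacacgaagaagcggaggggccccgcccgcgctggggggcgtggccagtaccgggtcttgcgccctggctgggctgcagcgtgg
The Hey2 window held 1 such match and the Gja4 window held 0. Of 32851 promoters in the table, 5.42% held a match, and so did 2 of the 13 listed Notch target genes found there. A match describes the letters of the window only.

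The 10 genes with the smallest p on the higher side were Zfp869, Ing5, Gja4, Cog7, Kctd15, Smg5, Abt1, Acot7, Tnfrsf12a and Fgfrl1. In each of them every N1het healthy library exceeded every WT library, as in 0.862% of all tested genes. Their adjusted p by limma ran from 0.294 to 0.409. These genes were picked by p in the same libraries, so their separation is no independent support. Zfp869, a zinc finger gene, was the tightest. It had 12.9 to 14.8 FPKM in N1het healthy valves (median 13.7), against 5.21, 4.35, 9.89 and 4.496 FPKM in WT valves, and a log2 difference of 1.14 ± 0.23 (SE). It was called when WT 3, the highest WT library, was left out (log2 difference 1.37, limma adjusted p = 0.0285).

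Kctd15, a BTB-domain gene that restrains neural crest formation in fish and frogs, had 8.91, 6.59, 9.76, 12.97, 5.43 and 4.05 FPKM in N1het healthy valves, against 1.32, 1.14, 0.931 and 0.782 FPKM in WT valves. The WT libraries lay close together, and the ratio of means was 7.62. Ing5, which reads histone marks in acetyltransferase complexes, had 6.29 to 13.4 FPKM in N1het healthy valves (median 7.40), against 0.0921, 2.05, 2.79 and 2.51 FPKM in WT valves. Smg5, a factor of nonsense-mediated RNA decay, had 7.62 to 14.3 FPKM (median 11.7) in N1het healthy valves, against 3.41, 2.96, 3.93 and 4.17 FPKM in WT valves. Zfp869, Kctd15, Ing5 and Smg5 had log2 differences of at least 0.94 among the libraries low in heart muscle, outside the deep libraries and without the 3 libraries that stood apart. Those settings reuse the libraries by which the genes were picked, so they are no independent check.

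Tnfrsf12a encodes Fn14, the receptor of the cytokine TWEAK, which injured tissue induces. It had 12.8 to 44.5 FPKM in N1het healthy valves (median 19.3), against 8.73, 1.49, 10.9 and 5.27 FPKM in WT valves. Fgfrl1, a fibroblast growth factor receptor without a kinase domain, had 16.02 to 44.6 FPKM (median 23.4) in N1het healthy valves, against 14.7, 6.80, 11.2 and 3.76 FPKM in WT valves. Acot7, an acyl-CoA thioesterase, had 9.80 to 35.8 FPKM (median 15.97) in N1het healthy valves, against 4.83, 6.76, 3.88 and 8.29 FPKM in WT valves. Cog7, part of the tethering complex of the Golgi, and Abt1, a transcription activator, were low genes with medians of 6.43 and 6.87 FPKM in N1het healthy valves. No WT library of Cog7 exceeded 2.32 FPKM, and none of Abt1 exceeded 1.30 FPKM.

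The 10 genes with the smallest p on the lower side were SNORD82, Dkc1, Prkcc, Grrp1, Fads1, Socs3, Chmp2b, Prdm4, Gmip and Cmtm3. The groups did not overlap for Dkc1, Prkcc, Fads1, Chmp2b and Prdm4, against 0.294% of all tested genes. These genes too were picked by p in the same libraries. Dkc1 encodes dyskerin, which modifies ribosomal RNA and is a stable part of the telomerase particle. It had 5.01, 10.3, 1.78, 8.47, 6.84 and 3.73 FPKM in N1het healthy valves, against 23.4, 14.9, 20.2 and 18.7 FPKM in WT valves. The log2 difference was -1.66 ± 0.41 (SE, limma adjusted p = 0.409). It averaged 9.42, 6.09 and 7.39 FPKM in the healthy XCT790, stenotic solvent and stenotic XCT790 valves, whose highest library, at 14.2 FPKM, was also below the lowest WT library. Those comparisons share the WT libraries with this one. Dkc1 was the 1 member of 21 tested telomere and telomerase genes with an unadjusted limma p under 0.05, against 7.42% of all tested genes. Of the 21, 12 were above 0 (57.1%, against 57.6% of all tested genes), with a median of 0.07, and -0.048 without N1het healthy 1. All animals in both groups lacked Terc, the RNA that dyskerin binds in that particle.

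Fads1, a desaturase in the synthesis of long polyunsaturated fatty acids, had 23.2 to 37.6 FPKM in N1het healthy valves (median 30.8), against 62.3, 52.8, 42.6 and 88.5 FPKM in WT valves. Prkcc, the gamma form of protein kinase C, had 0.108 to 2.68 FPKM (median 1.72) in N1het healthy valves, against 12.1, 9.05, 10.03 and 4.55 FPKM in WT valves. Chmp2b, a subunit of the ESCRT membrane-cutting machinery, had 12.1 to 22.9 FPKM (median 21.9) in N1het healthy valves, against 28.0, 41.7, 43.2 and 32.6 FPKM in WT valves. Prdm4, a PR-domain transcription factor, had 7.40 to 13.2 FPKM (median 9.95) in N1het healthy valves, against 27.2, 19.2, 20.3 and 16.6 FPKM in WT valves. For these genes each WT library stood above the highest N1het healthy library.

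Socs3, the feedback inhibitor of cytokine receptors, had 9.35 to 26.6 FPKM in N1het healthy valves (median 14.9), against 28.1, 58.2, 39.7 and 19.7 FPKM in WT valves. Only WT 4 fell within the range of the N1het healthy libraries. The log2 difference was -1.10 ± 0.29 (SE, limma adjusted p = 0.409) and -1.69 among the libraries low in heart muscle. SNORD82, a small nucleolar RNA, was listed at 0 in 4 of the 6 N1het healthy libraries and had 2.10 and 1.11 FPKM in the other 2, against 32.5, 30.9, 1.60 and 67.9 FPKM in WT valves. It was called when WT 3, its lowest WT library, was left out (log2 difference -4.94, limma adjusted p = 0.0285). Small nucleolar RNAs lie inside other genes, so reads of a host transcript may enter such a value.

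**Figure D3:**
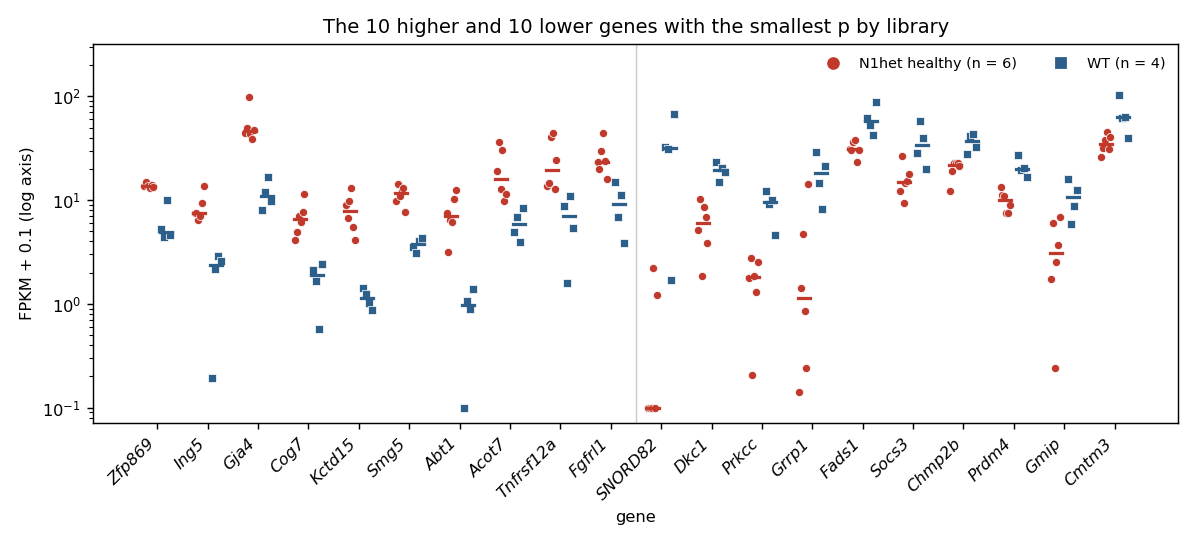
FPKM + 0.1 on a log axis for the 10 genes with the smallest p on the higher side (left of the line) and on the lower side (right of it), with 1 point per library (red circles, N1het healthy, n = 6, and blue squares, WT, n = 4) and a bar at each group's median. The groups are apart for all 10 genes on the left and for Dkc1, Prkcc, Fads1, Chmp2b and Prdm4 on the right, and no gene was called.

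The authors' deposited table marks 139 of 20872 genes for this comparison (0.666%). Its test was not named in the labels or the header. Notch1 is not among them. Of the marked genes, 111 had the higher mean in N1het healthy valves and 28 the lower. In that table, 46 marked genes were under the filter used here and 93 were tested (0.621% of genes tested). Of these 93, 74 had an unadjusted limma p under 0.05, against 7.42% of all tested genes. The groups did not overlap for 43 (46.2%), against 1.16% of all tested genes. The marks and these values come from the same deposited table, so their overlap is no independent support. In all, 42 of the 139 were listed at 0 in every WT library and 7 in every N1het healthy library. Of the 10 tested genes with the smallest p, 8 carry the mark of the authors' deposited table, as do 41 of the 100 with the smallest p. Gja4, Zfp869, Kctd15, Dkc1 and Socs3 are marked in the authors' deposited table.

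Genes of energy metabolism were above 0 more often than the 57.6% of all genes. Of 48 nuclear genes of oxidative phosphorylation, 40 were above 0 and the median log2 difference was 0.33, which was 0.22 when N1het healthy 6 was left out. At an unadjusted limma p under 0.05, 7 of the 48 were higher and 0 were lower, against 5.29% and 2.13% of all tested genes. Atp5o, a stalk subunit of ATP synthase, had 72.9 to 146 FPKM in N1het healthy valves (median 132), against 19.0, 67.4, 67.8 and 99.1 FPKM in WT valves. Ndufv2, a subunit of complex I, had 19.5 to 67.7 FPKM (median 36.2) in N1het healthy valves, against 12.6, 25.6, 13.9 and 14.8 FPKM in WT valves. Of 30 genes of fatty acid oxidation and the TCA cycle, 26 were above 0 and 4 were higher at an unadjusted p under 0.05, with a median of 0.38. Acadvl, the very-long-chain acyl-CoA dehydrogenase of mitochondria, had 15.5, 33.3, 24.5, 18.7, 48.3 and 28.0 FPKM in N1het healthy valves. In WT valves it had 10.8, 11.5, 10.7 and 11.8 FPKM, with no overlap. Cpt2, which releases fatty acids from carnitine inside the mitochondrion, had 6.25 to 23.2 FPKM (median 13.3) in N1het healthy valves, against 3.45, 6.00, 3.59 and 5.96 FPKM in WT valves, also with no overlap. Esrra, which encodes ERRα itself, had a median of 1.37 FPKM (0.364 to 1.84) in N1het healthy valves, against 1.83, 2.33, 3.46 and 2.00 FPKM in WT valves, and a log2 difference of -0.57.

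Heart muscle markers were high in the same libraries as these lists. Of 22 cardiomyocyte markers, 21 were above 0, with a median of 1.52 that ran from 0.98 without N1het healthy 2 to 2.31 without WT 4. None of the 22 had an unadjusted p under 0.05, and 5 of the 22 were at 0 in some library but none in all 10. Tnnt2, cardiac troponin T, had 114 to 1859 FPKM in N1het healthy valves (median 358), against 27.7, 30.5, 106 and 1673 FPKM in WT valves. Among the 3 N1het healthy and 3 WT libraries low in heart muscle, the cardiomyocyte median was 0.54, that of oxidative phosphorylation 0.01 and that of fatty acid oxidation and the TCA cycle 0.17, while the median of all tested genes was 0.01. The log2 difference of Acadvl was 0.75 and that of Cpt2 was 1.34 in those libraries. A refit with all libraries kept took the mean levels of the cardiomyocyte and smooth muscle markers as covariates. At an unadjusted limma p under 0.05 it had 740 genes higher and 341 lower in N1het healthy valves. The medians of the energy metabolism lists in that refit are not given here. The part of heart muscle in the differences over all 10 libraries was not tested beyond these fits. In a bulk sample, fewer cells of a type cannot be told apart from less RNA of that type per cell. The 6 tested mitochondrially encoded genes pointed the other way, all below 0, with a median of -1.19. That median ran from -2.06 without WT 1 to -0.54 without N1het healthy 4. The deep libraries N1het healthy 1 and 4 and WT 1 had the lowest mean levels of these genes.

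**Figure D4:**
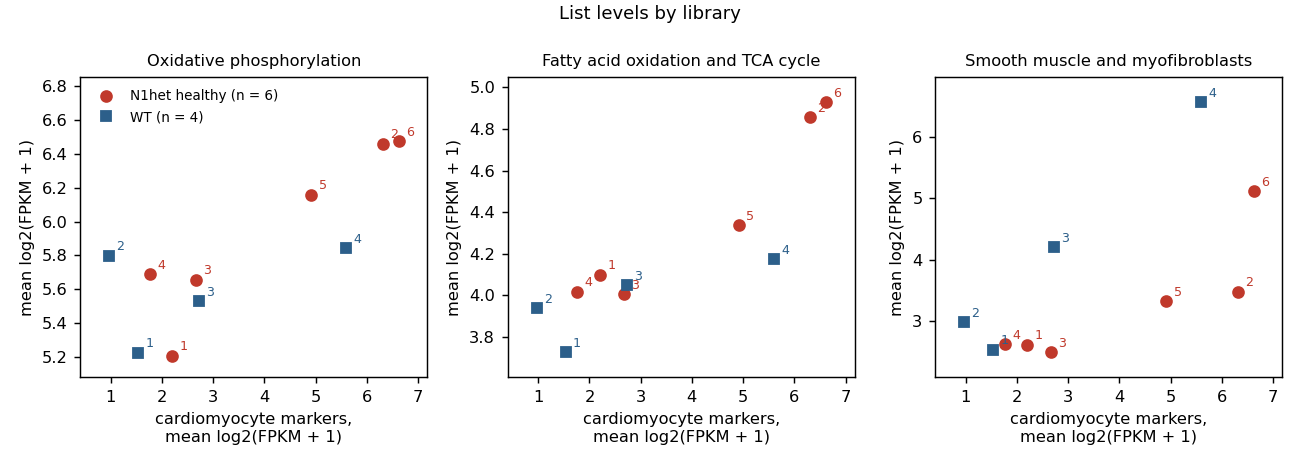
Mean log2(FPKM + 1) of 3 gene lists (y axes) against that of the cardiomyocyte markers (x axis), with 1 point per library, numbered as in the text (red circles, N1het healthy, n = 6, and blue squares, WT, n = 4). Libraries with high cardiomyocyte markers, N1het healthy 2, 5 and 6 and WT 4, are also the highest in oxidative phosphorylation and in fatty acid oxidation and the TCA cycle.

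Smooth muscle genes were below 0 in 12 of 15 members, with a median of -0.96, which was -0.0032 when WT 4 was left out. Myh11, smooth muscle myosin, had 0.107 to 33.5 FPKM in N1het healthy valves (median 0.588), against 0.846, 6.53, 59.0 and 398 FPKM in WT valves. Acta2, smooth muscle actin and a mark of activated interstitial cells, had 22.8 to 491 FPKM (median 121) in N1het healthy valves, against 104, 128, 380 and 2216 FPKM in WT valves. WT 4 was the highest in both. The list's median was -0.29 without the 3 libraries that stood apart.

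Cartilage-type matrix genes were above 0 in 14 of 18 tested members (77.8%, against 57.6% of all tested genes). Of the 18, 2 were higher at an unadjusted limma p under 0.05, against 5.29% of all tested genes. Their median of 0.33 ran from 0.22 to 0.47 when 1 library was left out. Their mean log2(FPKM + 1) was highest in the deep libraries N1het healthy 4 and 1. In N1het healthy 3 it was 3.75, below every WT library (3.90 to 4.18). Comp, a matrix protein that binds collagen in cartilage, tendon and valve, had 190, 143, 127, 313, 127 and 202 FPKM in N1het healthy valves, against 59.7, 120, 75.3 and 110 FPKM in WT valves. The groups did not overlap, although the lowest N1het healthy and the highest WT library were close, and the log2 difference was 0.98 ± 0.31 (SE, limma adjusted p = 0.477). Fmod, a collagen-binding proteoglycan from another list, had 169 to 1048 FPKM (median 338) in N1het healthy valves, against 307, 246, 167 and 104 FPKM in WT valves. Osteogenic and mineralization genes were above 0 in 15 of 20 tested members, with a median of 0.27 that was 0.16 when WT 4 was left out, and 0 of the 20 had an unadjusted p under 0.05. Panx3, a channel of osteoblasts and chondrocytes, had 0.565 to 10.5 FPKM (median 6.11) in N1het healthy valves, against 5.94, 1.10, 0.126 and 2.28 FPKM in WT valves.

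Of 25 tested transcription factors of valve development, 16 were above 0 (64%, against 57.6% of all tested genes). Their median was 0.31, and 0.18 when WT 4 was left out. Tbx3, which patterns the heart, had 17.3, 8.68, 4.09, 9.91, 10.6 and 10.2 FPKM in N1het healthy valves, against 3.66, 2.57, 4.91 and 6.79 FPKM in WT valves, where only N1het healthy 3 fell within the WT range. Scx, the tendon transcription factor scleraxis, had 15.7 to 47.7 FPKM (median 24.0) in N1het healthy valves, against 9.95, 15.7, 15.9 and 12.9 FPKM in WT valves. Zeb1, a repressor of epithelial genes, had 46.7 to 98.6 FPKM (median 69.4) in N1het healthy valves, against 96.2, 92.7, 90.2 and 89.4 FPKM in WT valves, and a log2 difference of -0.41. Collagens were above 0 in 16 of 24 members (median 0.28) and elastic fibre genes in 18 of 22 (median 0.22). Both lists were highest in the deep libraries N1het healthy 4 and 1, and without N1het healthy 4 their medians were 0.0048 for collagens and 0.083 for elastic fibre genes. Among matrix proteases and their inhibitors, 16 of 26 were above 0 (61.5%, near the 57.6% of all tested genes). Ctsk, the collagen-cutting cathepsin K, had 22.3 to 45.6 FPKM (median 40.4) in N1het healthy valves, against 17.4, 18.9, 25.4 and 22.2 FPKM in WT valves. Mmp11, a matrix metalloproteinase, had 0.0343 to 3.71 FPKM (median 2.05) in N1het healthy valves, against 2.93, 12.4, 7.84 and 10.3 FPKM in WT valves, and a log2 difference of -1.72 (limma adjusted p = 0.571).

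Of 17 tested inhibitors of mineralization, 4 were higher at an unadjusted limma p under 0.05, against 5.29% of all tested genes. In all, 10 of the 17 were above 0 (58.8%, against 57.6% of all tested genes). The list median was 0.12, and -0.033 when WT 4 was left out. Bmper, which binds and restrains bone morphogenetic proteins (BMPs), had 27.1 to 68.1 FPKM in N1het healthy valves (median 47.9), against 21.6, 34.5, 15.9 and 22.0 FPKM in WT valves, and a log2 difference of 0.93 ± 0.26 (SE, limma adjusted p = 0.409). Nt5e, the ectonucleotidase CD73, had 3.56 to 27.0 FPKM (median 8.74) in N1het healthy valves, against 0.902, 1.14, 14.9 and 5.02 FPKM in WT valves. Ahsg, the serum mineral-binding protein fetuin-A, had a log2 difference of 1.13 that was 0.06 among the libraries low in heart muscle. Of 26 tested genes of the BMP pathway, 17 were above 0 (65.4%, against 57.6% of all tested genes). Its type II receptor gene Bmpr2 had 98.0, 105, 79.1, 83.2, 92.0 and 103 FPKM in N1het healthy valves, against 130, 137, 132 and 111 FPKM in WT valves. That is a small separation without overlap, with a log2 difference of -0.45 ± 0.18 (SE, limma adjusted p = 0.588). Of 39 tested genes of the Wnt pathway, 30 were above 0, with a median of 0.32 that was 0.17 when WT 4 was left out. Wif1, a secreted Wnt inhibitor, had 108 to 349 FPKM (median 184) in N1het healthy valves, against 122, 110, 119 and 70.0 FPKM in WT valves. Sfrp4, another Wnt antagonist, had 0.385 to 5.15 FPKM (median 3.37) in N1het healthy valves, against 4.25, 5.93, 8.20 and 42.7 FPKM in WT valves.

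Immune lists lay near or below the median of all genes. Of 24 macrophage markers, 8 were above 0 and the median was -0.13, which was 0.10 outside the deep libraries and ran from -0.32 without WT 4 to 0.032 without N1het healthy 4. C1qa, a complement chain made by macrophages, had 65.7, 68.0, 98.4, 67.0, 73.5 and 90.9 FPKM in N1het healthy valves, against 139, 155, 107 and 120 FPKM in WT valves. The groups did not overlap, and the log2 difference was -0.75 ± 0.32 (SE, limma adjusted p = 0.607). Ptgs2, the inducible cyclooxygenase, had 2.93 to 13.01 FPKM (median 9.46) in N1het healthy valves, against 17.5, 18.2, 32.4 and 12.6 FPKM in WT valves. Psmb8, a subunit of the immunoproteasome, had 15.6 to 43.7 FPKM (median 31.6) in N1het healthy valves, against 49.2, 72.2, 37.9 and 55.1 FPKM in WT valves. Icam1, the leukocyte adhesion molecule of activated endothelium, pointed the other way, with 21.2 to 42.4 FPKM (median 30.1) in N1het healthy valves, against 25.3, 13.8, 20.4 and 16.6 FPKM in WT valves.

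Of 27 tested genes of glycolysis and the hypoxia response, 19 were above 0 (70.4%, against 57.6% of all tested genes), with a median of 0.24. Of the 27, 5 were higher at an unadjusted limma p under 0.05, against 5.29% of all tested genes. The median ran from 0.18 to 0.36 when 1 library was left out. The list's mean log2(FPKM + 1) was highest in N1het healthy 2, 6 and 5 (4.39, 4.39 and 4.25), which were rich in heart muscle. WT 4, also rich in it, was the highest WT library (4.15). The part of heart muscle in this list was not tested. Pgk1, a glycolytic kinase with near-identical processed copies in the genome that make its count uncertain, had 16.6 to 36.7 FPKM (median 27.9) in N1het healthy valves, against 8.26, 11.6, 9.88 and 33.8 FPKM in WT valves. Tmem97, a sterol-regulated receptor, had 1.01 to 6.47 FPKM (median 5.05) in N1het healthy valves, against 0.473, 0, 0.814 and 0 FPKM in WT valves. Its groups did not overlap, and its log2 difference was 1.96 ± 0.50 (SE, limma adjusted p = 0.409), while its list, cholesterol synthesis and uptake, had 11 of 23 members above 0 and a median of -0.10 that ran from -0.22 without N1het healthy 2 to 0.16 without WT 3. Phgdh, the entry enzyme of serine synthesis, had 1.19 to 6.75 FPKM (median 4.14) in N1het healthy valves, against 0.0374, 0.985, 1.35 and 0.143 FPKM in WT valves. Ddit3 (CHOP), a transcription factor of the stress response, had 3.70 to 32.2 FPKM (median 17.6) in N1het healthy valves, against 43.1, 24.7, 28.0 and 27.0 FPKM in WT valves. Across all 51 lists, 948 genes were tested and 0 were called.

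**Figure D5:**
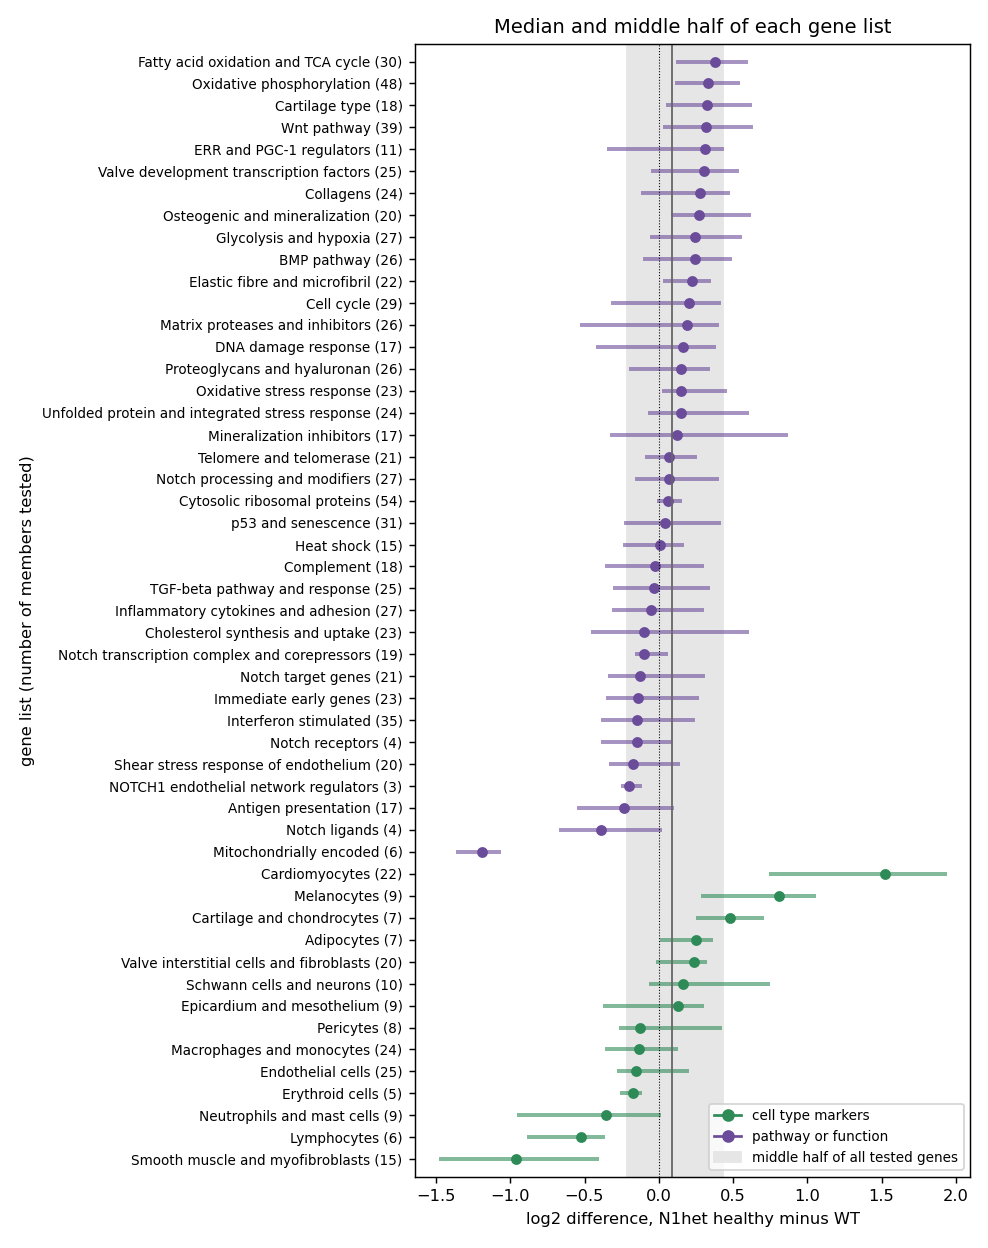
Median log2 difference (points) and quartiles (ends of the lines) of each of 51 gene lists, N1het healthy minus WT, with the number of members tested in brackets, green for cell type markers and purple for pathways. The grey band spans the quartiles of all tested genes (-0.22 to 0.43) and the grey line is their median (0.09). Cardiomyocyte markers (1.52) lie farthest to the right and mitochondrially encoded genes (-1.19, and -2.06 to -0.54 with 1 library left out) farthest to the left.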

How the data were processed

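RNA sequencing of aortic valves gave 1 deposited table of FPKM (fragments per kilobase of transcript, scaled to sequencing depth) for 20872 genes in 21 libraries, which the authors made with HISAT2 on mm9 and processed with FastQC, SAMtools and Picard, per the submitters' processing notes. The labels and the header name no versions, counter, annotation or strand setting. Libraries were made with the NuGEN Ovation RNA-Seq V2 kit, per the labels' protocols. A further deposited column holds the authors' mark of each gene for this comparison, used here as a score of 1 or 0. Groups follow the titles. The agent field goes against the title in 6 libraries, none among the 10 compared.

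Genes with a mean of at least 1 FPKM over all libraries were kept (14966, with 5906 left out). They were fitted on log2(FPKM + 1) with limma 3.58.1 (trend and robust, R 4.3.3, statmod 1.5.0), with 1 mean for each of the 5 groups and Benjamini-Hochberg adjustment over all tested genes. The adjusted p threshold was 0.05. A fold on this scale understates the change of low genes, and the procedure was checked on simulated data. All values above 0 (100%) lay within 0.01 of a whole read of the gene, which gave depth and 2 voom alternatives, and 0 sample columns were left unused. Named genes were the Notch receptors, ligands and network regulators, the 10 genes with the smallest p in each direction, up to 3 members of each list by smallest p, the 3 highest members of each marker list and up to 5 marked genes in each direction. Genes and lists were chosen with earlier results of these data known. No count model was used. Alternatives changed the pseudocount (0.1 or 5), the filter, the scaling, the libraries, the covariates (mean levels of the cardiomyocyte and smooth muscle markers, or depth class), the tool, the replicate block and the label that set the groups. The setting without libraries rich in heart muscle and the one without the 3 libraries that stood apart were chosen after the data were seen.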

Additional observations from a re-analysis of the deposited data

Results flagged for a closer look

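Single libraries stood far from the rest of their group in 17 of 268 checks of named genes and gene lists, and chance alone flags about 1 in 20. Among the Notch genes, Jag1 had 7.604 FPKM in WT 4, against 14.4 to 15.998 FPKM in the other WT libraries. Jag2 had 1.35 FPKM in N1het healthy 6, against at most 0.443 FPKM in the other N1het healthy libraries, and 0.372 FPKM in WT 2, against at least 1.796 FPKM in the other WT libraries. Gja4 had 98.9 FPKM in N1het healthy 3, and the other N1het healthy libraries had 38.4 to 49.0 FPKM.

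Chmp2b had its lowest N1het healthy value, 12.1 FPKM, in library 1. Tgfbi, a matrix protein that TGF-beta induces, had 225 FPKM in N1het healthy 4, against 89.5 to 106 FPKM in the other N1het healthy libraries. Oas3, an interferon-induced antiviral enzyme, had 3.44 FPKM in N1het healthy 6, and the other N1het healthy libraries had at most 0.428 FPKM. Esrra had 0.364 FPKM in N1het healthy 3. Cdc20, a mitotic gene, had 0.370 FPKM in WT 3 and was listed at 0 in the other WT libraries. The muscle genes Myh11 and Myl2 had 33.5 FPKM in N1het healthy 6 and 19.1 FPKM in WT 3.

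Among gene lists, as mean log2(FPKM + 1), macrophage markers were lowest in N1het healthy 4 (4.44) and epicardial and mesothelial markers were highest in N1het healthy 6 (2.74) and in WT 4 (2.25). WT 4 was also the lowest WT library in the unfolded protein response list (3.42) and the highest in interstitial cell and fibroblast markers (7.48). Erythroid markers were lowest in WT 3 (3.55).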

How the results depend on the processing

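In 26 refits and at an adjusted p under 0.1, the count of called genes was 0 apart from 3 settings. It was 1 with groups from the agent field (Gja4), 1 without WT 2 (BC011248) and 5 without WT 3 (Zfp869, Pgp, 2410015M20Rik, SNORD82 and U6), so the range over left-out libraries was 0 to 5. Genes at an unadjusted p under 0.05 numbered from 749 with a filter at 5 FPKM to 1340 with voom, and 1003 to 1266 without 1 library. The percent of them that were higher (71.3 in the reported fit) was 58.0 after median-of-ratios scaling and 59.7 among libraries low in heart muscle. With only the 2 compared groups fitted, 858 genes had an unadjusted p under 0.05 and the smallest adjusted p by limma was 0.154. With the replicate block 0 genes were called and 1150 had an unadjusted p under 0.05. Whether the replicate numbers pair libraries is not known, and 4 same-numbered pairs cannot settle it. After group means were removed, those pairs correlated at -0.059 to 0.105. Of the 4 WT libraries, 1 correlated best with its own number.

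Of 81 genes followed, 72 changed sign in no setting. Many of the 81 were named by a small p in these same libraries, so that count does not measure support. Notch1 was -0.014 after median-of-ratios scaling, -0.087 with muscle covariates, and -0.041 to 0.22 over left-out libraries. Outside the deep libraries Notch4 was 0.10 and Dll4 was 0.27. Sox7 was 0.035 with groups from the agent field, Heyl was 0.038 without the 3 libraries that stood apart, and with muscle covariates Tcf4 was 0.052. Acta2 was 0.014 with those covariates, which hold its own list, so that value is no test of it. Over left-out libraries Notch2 ran from -0.053 to 0.37, Dll4 from -0.53 to 0.22, Sox7 from -0.35 to 0.26 and Smad1 from -0.48 to 0.042. The median of macrophage markers was -0.53 with muscle covariates. The cause of these shifts was not tested. At 4 to 6 libraries a group, precision was limited by the spread between libraries.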
